A study of Mus musculus with 5 samples.

Results

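Bcl11b, Foxp1, Foxp2, Meis2, Rarb, Rxrg, Ebf1, Isl1 and Sp9 are transcription factor genes that mark the projection neurons of the striatum, and they were followed here in the nucleus accumbens of cocaine-treated and saline-treated mice. Of the 32042 spots that the platform annotation ties to exactly 1 gene symbol (19087 genes), 18 belonged to these 9 genes, and all 18 were read on all 5 arrays. By recovered brightness, spots of 6 of the genes (Bcl11b, Foxp1, Foxp2, Meis2, Rarb and Rxrg) lay above the background of the arrays (18.8% of all genes did). The Foxp2 spot among them was close to the brightness limit and fell out under a stricter one. Ebf1 and Sp9 had only spots with the ratios of background and Isl1 lay between. None of the 18 spots passed the test for a difference between cocaine and saline (0% of all features did). For the spots not above background this says little, because the fit of deposited values recovered almost none of the changes in simulated data. Once the trend of ratio with brightness was removed, the 95% intervals of all 9 spots above background lay within a 2-fold change. These intervals bound the measured ratios, not the transcript changes, since several spots had a channel near background on 1 array. The interval of 1 of the 9 spots, a Bcl11b spot with 1 channel at background on that array, sets no bound.

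The tissue was the accumbens of male C57BL6 mice that had gone through conditioned place preference, in which a drug is paired with 1 compartment of a cage and the time spent there is scored later. The tested mice received cocaine at 15 mg/kg on days 2, 3 and 4 of the protocol and scored low for the preference, and the mice they were set against received saline on the same days. Each array held 1 cocaine and 1 saline RNA, with cocaine in the dye Cy5 on 3 arrays (replicates 1, 2 and 3) and in the dye Cy3 on 2 (replicates 1 and 2). Apart from a suffix, the cocaine RNAs of Cy5 replicates 1 and 2 have the same name in the labels and may be of 1 animal, so a p-value measures the spread between these arrays, and over 5 arrays an exact two-sided test could not go below 0.0625.

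Projection neurons make up most of the striatum and release GABA. They fall into a direct-pathway class, which carries the D1 dopamine receptor and substance P, and an indirect-pathway class, which carries the D2 receptor and enkephalin. Bcl11b (also called Ctip2) is a zinc finger repressor needed for these neurons to mature, and Meis2 is a homeodomain factor present from their progenitors onward. Foxp1 and Foxp2 are related forkhead repressors, with Foxp2 known for its part in vocal learning and speech. Rarb and Rxrg are nuclear receptors that pair on DNA to respond to retinoic acid, and Isl1 and Ebf1 act in the direct-pathway class, whereas Sp9 acts in the indirect-pathway class. Isl1 is also used by cholinergic interneurons, and Ebf1 and Foxp1 by vascular cells.

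The retinoid receptors are the members for which a DNA element is best known, since retinoic acid receptors bind direct repeats upstream of Rarb itself. Both strands of the RefSeq promoter windows (assembly GRCm38.p6, 250 bases before to 50 bases after each start) were searched for the repeat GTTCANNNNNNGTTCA and for a single element AGGTCA. The repeat stood in 25 of 32851 windows (0.0761%), and in 1 of the 12 windows of the 8 member genes found in that table, that of Rarb. It lay 52 to 37 bases upstream of the start (chr14:16575477-16575586, minus strand), and the capitals mark it. The single element stood in 16.3% of all windows and in 1 of the 12, that of Rxrg, 88 to 83 bases upstream (chr1:167618135-167618234, plus strand). The stretches are shown because these are the 2 receptor genes among the 9, and the match of letters describes the window only.
Rarb: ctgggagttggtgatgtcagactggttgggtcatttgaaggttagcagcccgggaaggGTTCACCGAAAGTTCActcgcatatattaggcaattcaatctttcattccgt
Rxrg: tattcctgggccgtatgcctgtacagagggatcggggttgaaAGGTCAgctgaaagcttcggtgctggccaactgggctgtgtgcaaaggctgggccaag
The GC box GGGCGG, the kind of element that Sp-family factors bind, stood in 35.7% of all windows and in 3 of the 12, which belonged to 2 genes, Foxp1 and Sp9.

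The values were log2 ratios of the 2 channels, with all 5 arrays read as running the same way, and which treatment is the numerator is not known. Ratios below 0 are therefore given as lying on the denominator side. Such ratios say nothing of how strongly 1 gene is expressed against another, so no order of levels among the 9 genes can be given. Brightness of each spot was recovered as a log2 value from 3 arrays whose ratios are exact fractions of scanner counts. A spot over 7.5 was called above background, which held for 12.9% of the gene spots and 18.8% of the genes. For the 9 spots of these genes that passed, the recovered value had a standard deviation of 0.16 to 0.77 log2 units. The class of the dimmer ones is therefore uncertain. On the arrays with cocaine in Cy5, background spots stood near -0.65, -0.61 and -0.56 (replicates 1, 2 and 3), and on those with cocaine in Cy3 near 0.58 and 0.64 (medians of the dimmest spots). Above it, the ratio followed brightness differently on each array. Among spots with a log2 brightness of 9 to 11 the medians were -1.78, -0.13 and 0.25 with cocaine in Cy5, and -0.91 and -0.28 with cocaine in Cy3. The array with cocaine in Cy5, replicate 1, stood apart. Its recovered signal over background differed from that of replicate 2 by -1.3 log2 units, and over all features it correlated with replicate 3 at -0.32, whereas its background spots had the same sign as on the other Cy5 arrays. For the spots of the 9 genes outside background, ratios are given with and without it. In tissue RNA, fewer cells of a type and less RNA per cell cannot be told apart.

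**Figure D1:**
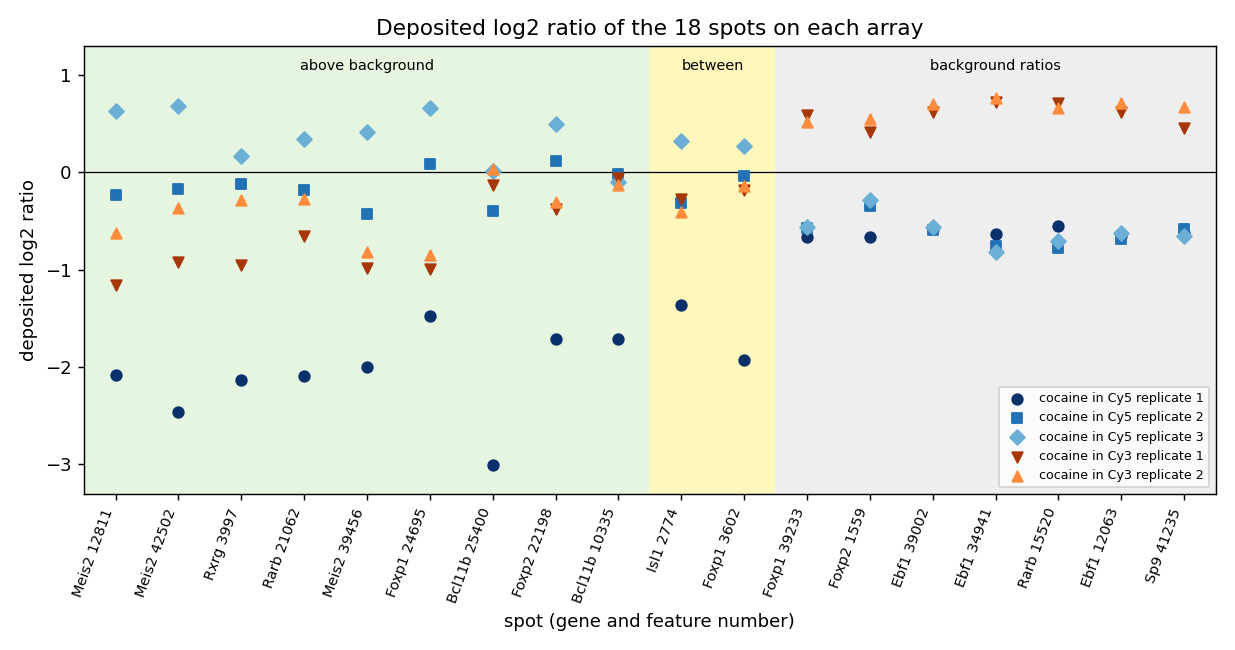
Deposited log2 ratio (y axis) of the 18 spots of the 9 genes (x axis, gene and feature number) on the 5 arrays, 1 point per array, with the brightest at the left of each class and shaded by class. The 7 spots at the right, with background ratios, split by dye orientation below and above 0, which follows from how that class is defined. Among the 9 spots at the left the array with cocaine in Cy5, replicate 1, is the lowest for every spot.

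Meis2 had 3 spots and all 3 were above background. The first (feature 12811, a RefSeq mRNA probe) read -2.08, -0.24 and 0.63 on the arrays with cocaine in Cy5 (replicates 1, 2 and 3) and -1.16 and -0.62 on those with cocaine in Cy3 (replicates 1 and 2). The second (feature 42502, RefSeq mRNA) read -2.46, -0.17 and 0.68 with cocaine in Cy5 and -0.91 and -0.37 with cocaine in Cy3, and the third (feature 39456, a cDNA probe) read -2, -0.42 and 0.42 with cocaine in Cy5 and -0.98 and -0.82 with cocaine in Cy3. Each probe was lowest with cocaine in Cy5, replicate 1, and above 0 with cocaine in Cy5, replicate 3, alone. The treatment ratios were -0.72 ± 0.43, -0.65 ± 0.50 and -0.78 ± 0.38 (SE, 5 arrays; adjusted p 0.731 for each, limma with Benjamini-Hochberg adjustment over 43790 features). No feature of the whole table passed the adjusted threshold of 0.05 in that test (0% called), and 998 (2.28%) had an unadjusted p under 0.05, 481 of them on the denominator side (1.1%) and none of them a spot of the 9 genes.

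After the brightness trend of each array was subtracted, most of the offset of the Meis2 probes was gone. Feature 12811 then read -0.32, -0.18 and 0.31 with cocaine in Cy5 and -0.04 and -0.22 with cocaine in Cy3, for a ratio of -0.10 ± 0.11 (95% interval -0.35 to 0.16). Feature 42502 read -0.66, -0.05 and 0.43 with cocaine in Cy5 and -0.01 and -0.10 with cocaine in Cy3, for -0.07 ± 0.15 (-0.44 to 0.29). Feature 39456 read -0.39, -0.24 and 0.27 with cocaine in Cy5 and -0.32 and -0.70 with cocaine in Cy3, which gave -0.32 ± 0.12 (-0.60 to -0.03). On both arrays with cocaine in Cy3 the cDNA probe was the lowest of the 3. In the fit of the 4127 gene spots above background none passed the adjusted threshold (0% called, limma), while 301 (7.29%) had an unadjusted p under 0.05, 163 of them on the denominator side (3.95%). Feature 39456 was the 1 spot of the 9 genes among the 301, with an unadjusted p of 0.0345 (adjusted p 0.642), and it lay on the denominator side on 4 of 5 arrays. Without the array with cocaine in Cy5, replicate 1, the 3 ratios were -0.03, 0.07 and -0.25. The mean of the 3 probes was -0.16 ± 0.12 (adjusted p 0.707).

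**Figure D2:**
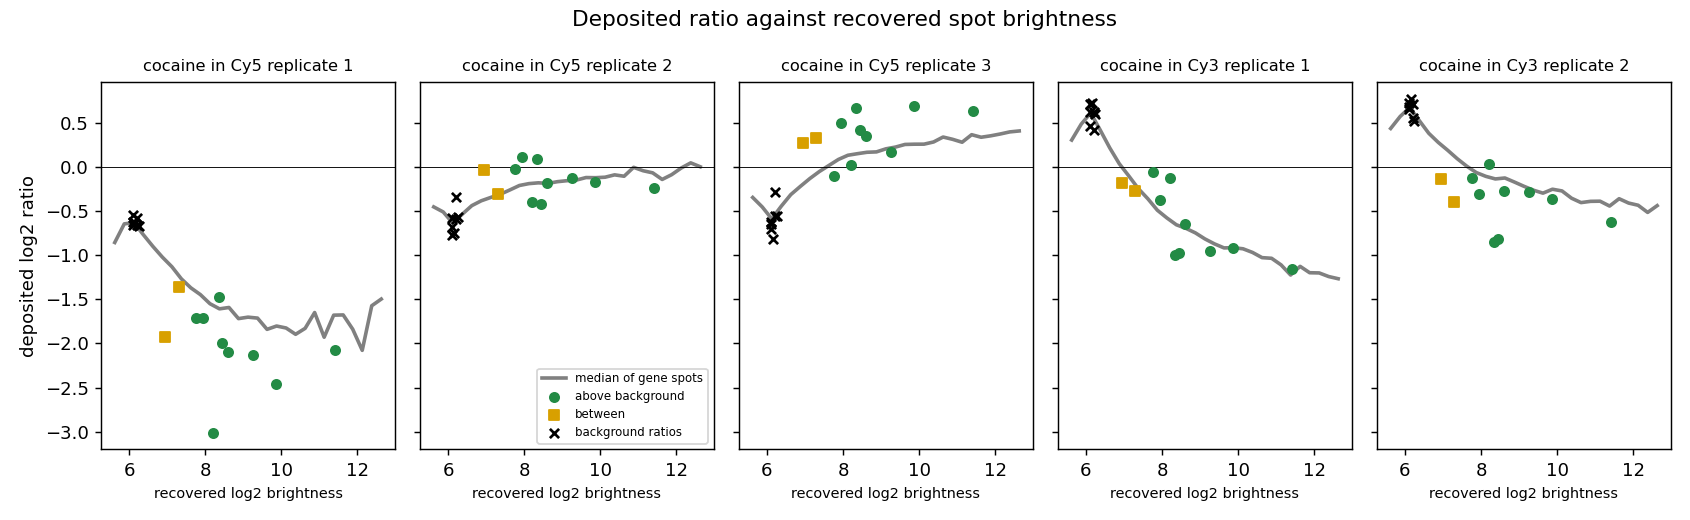
Deposited log2 ratio (y axis) against recovered log2 brightness (x axis) of the 18 spots, 1 panel per array, with the median of all gene spots in bins of brightness as a grey line. The line starts near the background ratio of each dye orientation and bends to a different level on each array, and most spots of the 9 genes lie near it.

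The 2 probes of Bcl11b differed most on 1 array. Feature 25400 (RefSeq mRNA) read -3.01, -0.40 and 0.01 with cocaine in Cy5 and -0.13 and 0.03 with cocaine in Cy3, and its -3.01 was the lowest value of any of the 18 spots. Feature 10335 (cDNA) read -1.71, -0.02 and -0.10 with cocaine in Cy5 and -0.05 and -0.13 with cocaine in Cy3. On the first and second Cy5 arrays the RefSeq probe was the lower, and on the other arrays both probes lay between -0.13 and 0.03. The deposited treatment ratios were -0.59 ± 0.50 and -0.35 ± 0.29 (adjusted p 0.732 and 0.731, limma). On the array with cocaine in Cy5, replicate 1, the exact fraction of feature 25400 was 17 over 137, most likely 51 over 411 scanner counts, so its numerator signal was no higher than the background level of that channel (55.7 counts). The ratio of that spot is then limited by background on 1 side.

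With the trend removed, feature 25400 read -1.44, -0.21 and -0.12 with cocaine in Cy5 and 0.47 and 0.13 with cocaine in Cy3. The orientations did not overlap. How many of all spots above background do the same was not counted, so the split is not read as a trait of this spot. The treatment ratio of feature 25400 was -0.14 ± 0.20 (95% interval -0.63 to 0.34, adjusted p 0.827), and 0.07 without the array with cocaine in Cy5, replicate 1. Its dye difference, the mean with cocaine in Cy5 minus the mean with cocaine in Cy3, was -0.89 ± 0.41 (adjusted p 0.25), and 2.74% of all spots above background had a lower one. Without the first Cy5 array the dye difference was -0.46 ± 0.16. Feature 10335 read -0.30, 0.22 and -0.14 with cocaine in Cy5 and 0.37 and -0.11 with cocaine in Cy3, and its orientations overlapped. The ratio there was 0.03 ± 0.11 (-0.24 to 0.29, adjusted p 0.947), and 0.08 without the first Cy5 array. The mean of both probes was -0.06 ± 0.14.

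The forkhead genes had 5 spots, of which 2 were above background. Foxp1 feature 24695 (cDNA) read -1.47, 0.09 and 0.66 with cocaine in Cy5 and -0.99 and -0.85 with cocaine in Cy3, for a ratio of -0.58 ± 0.34 (adjusted p 0.731). Foxp2 feature 22198 (RefSeq mRNA) read -1.71, 0.11 and 0.50 with cocaine in Cy5 and -0.38 and -0.30 with cocaine in Cy3, for -0.35 ± 0.36 (adjusted p 0.755). Both were above 0 on Cy5 replicates 2 and 3 and below 0 on the other arrays. The remaining forkhead probes were at or near background. Feature 3602 (RefSeq mRNA), with a log2 brightness of 6.95, read -1.93, -0.04 and 0.27 with cocaine in Cy5 and -0.18 and -0.14 with cocaine in Cy3 (-0.36 ± 0.37, adjusted p 0.752, and -0.02 without the first Cy5 array). Feature 39233 (cDNA) had background ratios, at -0.67, -0.57 and -0.56 with cocaine in Cy5 and 0.59 and 0.52 with cocaine in Cy3. Foxp2 feature 1559 (RefSeq mRNA) was also at background, at -0.66, -0.34 and -0.29 with cocaine in Cy5 and 0.42 and 0.55 with cocaine in Cy3.

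With the trend removed, Foxp1 feature 24695 was higher with cocaine in Cy5, the direction opposite to Bcl11b feature 25400. It read 0.12, 0.28 and 0.52 with cocaine in Cy5 and -0.36 and -0.74 with cocaine in Cy3. The dye difference of 0.86 ± 0.19 (adjusted p 0.109, limma) was higher than that of 99.2% of the spots above background, whose median absolute dye difference was 0.249. The treatment ratio, in which the orientations are balanced, was -0.12 ± 0.10 (95% interval -0.35 to 0.11, adjusted p 0.711), and -0.08 without the first Cy5 array. Foxp2 feature 22198 read -0.23, 0.32 and 0.40 with cocaine in Cy5 and 0.15 and -0.23 with cocaine in Cy3, with overlap between the orientations. Its ratio was 0.06 ± 0.12 (-0.22 to 0.35, adjusted p 0.870), and 0.16 without the first Cy5 array.

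Rarb and Rxrg, the retinoid receptors, each had 1 spot above background. Rarb feature 21062 (RefSeq mRNA) read -2.10, -0.18 and 0.35 with cocaine in Cy5 and -0.65 and -0.28 with cocaine in Cy3, for a deposited ratio of -0.55 ± 0.40. Rxrg feature 3997 (RefSeq mRNA) read -2.13, -0.12 and 0.17 with cocaine in Cy5 and -0.95 and -0.28 with cocaine in Cy3, for -0.66 ± 0.40 (adjusted p 0.731 for both). For both receptors the first Cy5 array was lowest and the third highest, as they were for the medians of all spots with a log2 brightness of 9 to 11. A second Rarb probe (feature 15520, cDNA) had background ratios, at -0.55, -0.78 and -0.71 with cocaine in Cy5 and 0.71 and 0.66 with cocaine in Cy3.

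Trend removal brought Rarb feature 21062 to -0.47, -0.0017 and 0.19 with cocaine in Cy5 and 0.04 and -0.14 with cocaine in Cy3. Its ratio was -0.07 ± 0.11 (95% interval -0.34 to 0.19, adjusted p 0.838), and 0.02 without the first Cy5 array. Rxrg feature 3997 read -0.40, 0.03 and -0.05 with cocaine in Cy5 and -0.13 and -0.06 with cocaine in Cy3. All of its arrays but the first lay within 0.13 of 0, and the ratio was -0.12 ± 0.09 (-0.33 to 0.09, adjusted p 0.699), the smallest standard error among the 9 spots. Without the first Cy5 array it was -0.05.

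Of the factors that divide the pathway classes, none had a spot above background. Ebf1 had 3 probes, and all had background ratios. Feature 39002 (RefSeq mRNA) read -0.58, -0.59 and -0.56 with cocaine in Cy5 and 0.62 and 0.71 with cocaine in Cy3. Features 34941 and 12063 (cDNA) lay between -0.82 and -0.63 with cocaine in Cy5 and between 0.62 and 0.77 with cocaine in Cy3. Sp9 feature 41235 (cDNA) read -0.63, -0.58 and -0.65 with cocaine in Cy5 and 0.46 and 0.67 with cocaine in Cy3. Isl1 feature 2774 (RefSeq mRNA) was not a background spot by its ratios. It read -1.36, -0.31 and 0.32 with cocaine in Cy5 and -0.27 and -0.40 with cocaine in Cy3, but its log2 brightness of 7.30 was under the limit. Its deposited ratio was -0.39 ± 0.26 (adjusted p 0.731), or -0.17 without the first Cy5 array, and -0.12 ± 0.11 with a trend drawn over all spots (adjusted p 0.772). Isl1 and Foxp1 feature 3602 were the 2 spots just below the brightness limit, and Bcl11b feature 10335, at 7.75, was the one just above it.

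In all, 7 of the 18 spots had background ratios, against 64.5% of all gene spots. Such ratios were defined as lying within 2.5 median absolute deviations of the array median over all fitted features, on all 5 arrays. Those medians were -0.69, -0.57 and -0.52 with cocaine in Cy5 (replicates 1, 2 and 3) and 0.53 and 0.60 with cocaine in Cy3. The definition thus sets the dye split and holds treatment ratios near 0, so neither is a result about these genes. All 7 were below 0 on the 3 arrays with cocaine in Cy5 and above 0 on the 2 with cocaine in Cy3. Their dye differences were -1.48 to -0.92. Their treatment ratios lay between -0.03 and 0.04, with standard errors of 0.034 to 0.072. Those narrow errors describe the scanner background. They set no bound on a change of Ebf1 or Sp9 transcripts, whose probes gave no signal above background. Foxp1, Foxp2 and Rarb had probes with background ratios beside probes above background, so such a probe does not show that a transcript is absent.

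**Figure D3:**
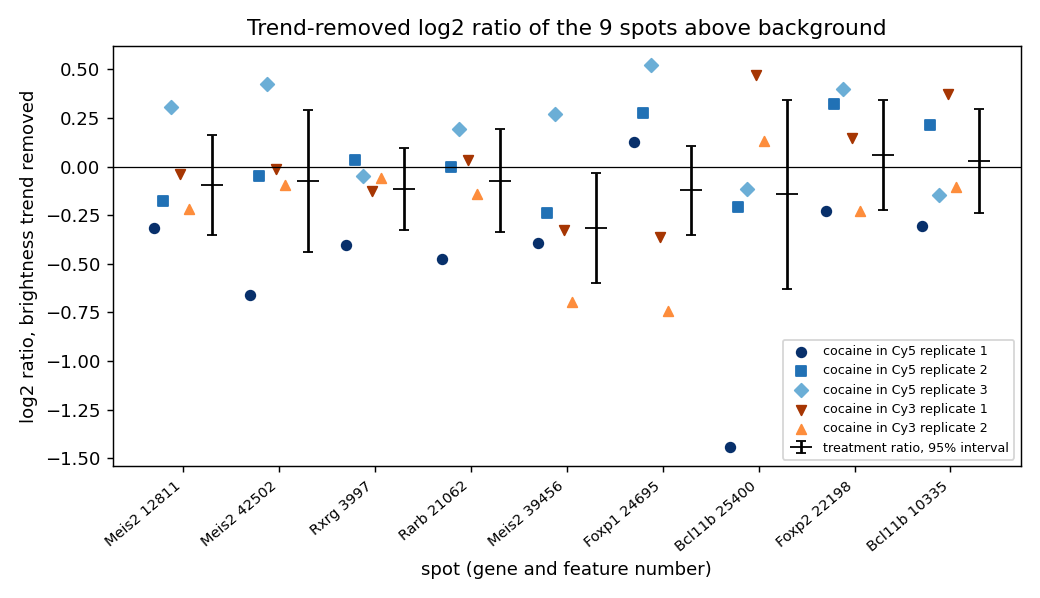
Log2 ratio after removal of the brightness trend (y axis) of the 9 spots above background (x axis, brightest at the left), with 1 point per array and, beside them, the treatment ratio of the limma fit with its 95% interval in black. The intervals lie between -0.63 and 0.35, the widest is that of Bcl11b feature 25400, and the interval of Meis2 feature 39456 alone leaves out 0.

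Over the 9 spots above background, removal of the trend narrowed the intervals. All 9 intervals then lay within a 2-fold change in either direction, between -0.63 and 0.35, whereas 0 of 9 did so for the deposited ratios. The interval of Bcl11b feature 25400 (-0.63 to 0.34) includes the array on which its numerator was at background and sets no bound. Without that array it was -0.12 to 0.26. On the same array other numerators were near background, most likely 73 counts for Bcl11b feature 10335 and 87 for Foxp2 feature 22198. Those of Rarb feature 21062 and Meis2 feature 39456 were most likely 90.5 and 91 counts. The intervals therefore bound the measured ratios, not the transcript changes. The median of the 9 spots was -0.59 as deposited, beside -0.48 for all 4127 spots above background, and -0.10 with the trend removed, beside 0.00 for all. On the denominator side lay 7 of the 9 spots, where 50.1% of all spots lay, and on the numerator side 2, Foxp2 feature 22198 and Bcl11b feature 10335. That count moved with the arrays used. On the denominator side lay 4 spots without the first Cy5 array, 8 without the second, 9 without the first Cy3 array and 7 without either of the others. With the sign of the first Cy5 array turned it was 2, and with the background level subtracted, the trend over all spots or a posterior mean brightness it was 8. As deposited, the 9 ratios lay between -0.78 and -0.35 with all arrays and between -0.45 and -0.02 without it. With cocaine in Cy5, 8, 5 and 3 of the 9 spots lay below 0 on replicates 1, 2 and 3, and with cocaine in Cy3, 5 and 8 on replicates 1 and 2, whereas 49.7% to 51.1% of all spots lay below 0 on each array. Dim spots sit on a background, put at 55.7 to 88.6 counts per channel on the Cy5 arrays from recovered brightness, so their ratios understate any difference.

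Of 14 paralogs of the 9 genes listed, 13 had a spot and 2 had one above background, with 0 past the adjusted threshold in either fit. Bcl11a, the relative of Bcl11b found mainly in cortex and interneurons, had 3 spots above background, at -0.10 ± 0.09, -0.02 ± 0.10 and 0.05 ± 0.08 with the trend removed. Rxra, a partner receptor of the Rxrg family, was at -0.12 ± 0.07, on the denominator side on all 5 arrays (adjusted p 0.644), and -0.10 without the first Cy5 array. How many of all 4127 spots above background lie on 1 side on all 5 arrays was not counted. For Rxra, and for Tshz1, Drd1 and Flt1 below, that count of arrays is a description only. Meis1, Meis3, Foxp4, Rara and the other paralogs with a spot did not exceed the brightness limit.

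Of 25 other genes listed for the ventral telencephalon, transcriptional regulators apart from Crym, 22 had a spot and 6 had one above background, with a median trend-removed ratio of -0.03 over 7 spots and 0 past the adjusted threshold. Tshz1, a zinc finger factor of a subset of projection neurons, was at 0.13 ± 0.11 and on the numerator side on all 5 arrays (adjusted p 0.723), and at 0.19 without the first Cy5 array. Crym, a thyroid hormone binding protein, was at -0.06 ± 0.20, and Id4, an inhibitor of basic helix-loop-helix factors, was at -0.02 ± 0.14. Foxo1 had 2 spots, at -0.06 ± 0.14 and -0.08 ± 0.07. Tcf4 was at -0.03 ± 0.13. As deposited, Pbx3 feature 18700 (0.12 ± 0.04) and Nr2f2 feature 36790 (-0.18 ± 0.06) had unadjusted p-values of 0.027 and 0.043 (adjusted p 0.731 for both). Neither was above the brightness limit, and feature 18700 had background ratios. The 1 Pbx3 spot without them, feature 35525 at the limit, was at -0.50 ± 0.19 (unadjusted p 0.051), on the other side.

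Of 21 genes listed for the retinoic acid pathway, in which Rarb and Rxrg act, 17 had a spot and 2 had one above background. Ncoa1, a coactivator of nuclear receptors, was at -0.08 ± 0.14, and Rbp4, the carrier of retinol in blood, was at 0.00 ± 0.09, each with an adjusted p over the threshold (0.864 and 0.997). The enzymes that make and break down retinoic acid had no spot above background.

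**Figure D4:**
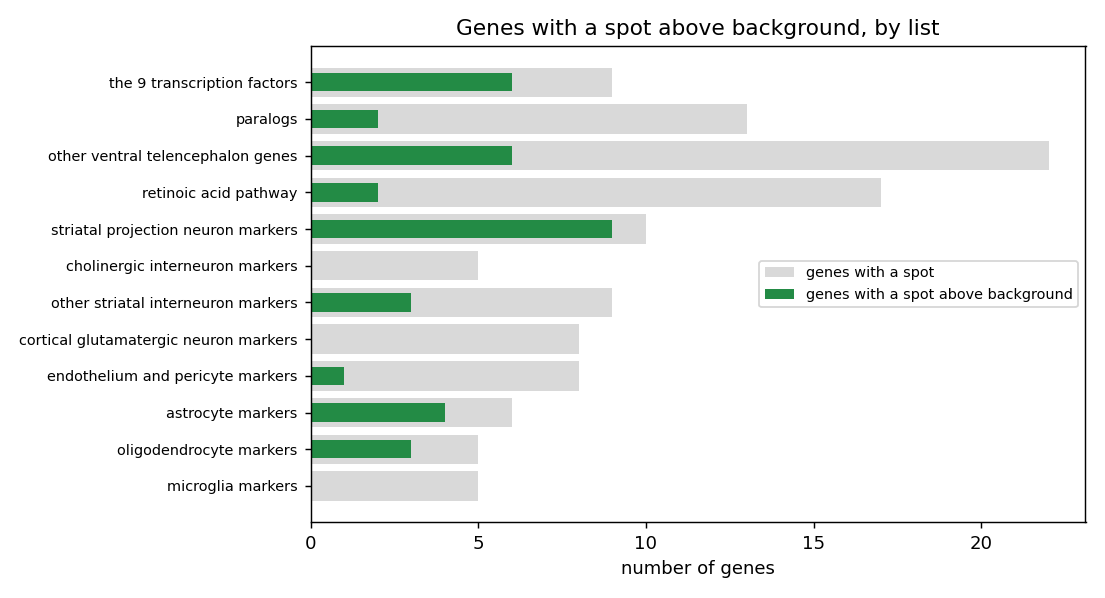
Number of genes with a spot on the array (grey bars) and with a spot above background (green bars) in the 9 transcription factors, the gene lists near them and the cell type markers (y axis, lists). The projection neuron markers have 9 of 10 genes above background, and the cholinergic, cortical glutamatergic and microglial lists have 0.

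The markers of striatal projection neurons were above background for 9 of 10 measured genes, as the tissue label calls for. Among these, 5 of 10 spots lay on the denominator side with the trend removed and the median was 0.00. Penk, the enkephalin precursor of the indirect-pathway class, was at -0.02 ± 0.13 and -0.12 ± 0.23, and Pdyn, the dynorphin precursor of the direct-pathway class, was at -0.06 ± 0.12. Arpp21 was at -0.13 ± 0.25, Rgs9 at 0.14 ± 0.08, Pde10a at -0.08 ± 0.08 and Drd2, the D2 receptor, at 0.02 ± 0.10. Drd1, the D1 receptor, was at 0.31 ± 0.09 (unadjusted p 0.012, adjusted p 0.642). It was on the numerator side on all 5 arrays, for which the share over all spots was not counted. Tac1, the substance P precursor, was at 0.22 ± 0.08 (unadjusted p 0.029), and Ppp1r1b, the DARPP-32 gene, at 0.33 ± 0.13 (unadjusted p 0.037), both with an adjusted p of 0.642. On the numerator side lay 3 of 5 arrays for Tac1 and 4 of 5 for Ppp1r1b. Without the first Cy5 array, Drd1 was at 0.35, Tac1 at 0.27 and Ppp1r1b at 0.41.

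Cholinergic interneuron markers, which bear on Isl1, had 0 of 5 measured genes above background, and cortical glutamatergic neuron markers had 0 of 8. Of the endothelial and pericyte markers, which bear on Ebf1 and Foxp1, 1 of 8 was above background. That gene was Flt1, a receptor for vascular growth factors, at -0.27 ± 0.08 with the trend removed, on the denominator side on all 5 arrays (unadjusted p 0.013, adjusted p 0.642), and -0.23 without the first Cy5 array. Vwf feature 41298, which was under the limit, was at -0.39 ± 0.11 as deposited (unadjusted p 0.017, adjusted p 0.731). Microglial markers had 0 of 5 genes above background, astrocyte markers 4 of 6, oligodendrocyte markers 3 of 5 and other interneuron markers 3 of 9. None of these genes passed the adjusted threshold in either fit. The part of these cells in the ratios of the 9 factors was not tested.

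The spot of another gene with the most similar trend-removed values over the 5 arrays was found for the brightest spot of each of the 6 genes, by Euclidean distance on the log2 scale. Rxrg feature 3997 had the closest match, Cox5a, at a distance of 0.0565. Foxp1 feature 24695 lay 0.131 from Khdrbs2, which read 0.04, 0.23 and 0.46 with cocaine in Cy5 and -0.42 and -0.74 with cocaine in Cy3. Since Khdrbs2 was picked for nearness over these same values, its like split by orientation follows from the choice. Rarb feature 21062 lay 0.145 from Tmem234, Foxp2 feature 22198 0.155 from Ddit4 and Meis2 feature 12811 0.158 from Mblac2. Bcl11b feature 25400 had the most distant nearest spot, Inf2 at 0.303, which read -1.14, -0.15 and -0.10 with cocaine in Cy5 and 0.50 and 0.14 with cocaine in Cy3. These distances describe 5 arrays and say nothing of shared function.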

How the data were processed

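Nucleus accumbens RNA was extracted with a PicoPure kit, amplified linearly, labelled with Cy5 or Cy3 and hybridised to Agilent mouse arrays of long oligonucleotides, per the labels' protocols. Images were read with Agilent Feature Extraction, per the submitters' processing notes, with a version and background correction not given in the sources used here. Deposited values are log2 ratios. Turned back to linear ratios, at least 43780 of the 43790 features in each of the 3 columns with 15 digits were fractions of whole or stepped scanner counts (relative tolerance 2e-14), so those values hold no centring. The other 2 columns, with 6 digits, were taken to share that scale. All arrays were read as already turned one way, because background spots switched sign with the dye orientation.

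The 500 features at 0 on all arrays were left out. Ratios were tested with limma 3.58.1 in R 4.3.3 (treatment mean plus dye orientation, Benjamini-Hochberg adjustment, threshold 0.05), as deposited on 43790 features. Brightness was recovered by weighing the common factor of each fraction over 3 arrays (Python 3.11.15, NumPy 2.4.6, pandas 2.3.3), with a shift of -1.3 and -0.1 log2 units for the arrays with cocaine in Cy5, replicates 1 and 3, relative to replicate 2. A loess (span 0.3) on brightness over the 4127 gene spots above 7.5 was then subtracted per array and the fit repeated. Both fits and the recovery were tested on simulated data. The fit of deposited values recovered almost none of the known changes, so its absence of calls says little. The trend-removed fit recovered 65.7% of changes of 0.5 log2 units and 88.1% of changes of 1, with 6 false calls over all sizes. Those changes were added to ratios with the trend already removed, so compression by background and errors in brightness were not simulated. Precision is limited by the number of arrays.

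The 9 genes, the gene lists and the tests were chosen with earlier results of these data known. Named genes are all spots of the 9 genes, up to 6 bright spots per list, list spots with an unadjusted p under 0.05, and the nearest spot of each of 6 genes. Alternatives covered scaling, background, brightness, dye term, array weights, single orientations and single arrays left out.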

Additional observations from a re-analysis of the deposited data

How the results depend on the processing

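Apart from the 4 settings named next, 0 features passed the adjusted threshold in either fit under the scaling, background, brightness, dye and weight settings run or with 1 array left out (limma). As deposited, 34346 features passed with Cy5 over Cy3 read on every array, 33630 from the cocaine-in-Cy5 arrays alone and 35254 from the cocaine-in-Cy3 arrays alone, where a dye difference counts as a treatment difference. With the trend removed, 38 spots passed from the cocaine-in-Cy3 arrays alone. Features with an unadjusted p under 0.05 numbered 240 to 2437 as deposited when 1 array was left out, 10263 after quantile normalization, 7456 with array weights and 107 with the sign of cocaine in Cy5, replicate 1, turned. With the trend removed they numbered 41 to 421 when 1 array was left out, 106 without the dye term, 742 with array weights, 187 with the background level subtracted and 1173 from the cocaine-in-Cy3 arrays alone.

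Spots with background ratios follow the dye and are left out of what comes next. As deposited, the ratio changed side with Cy5 over Cy3 on every array for Foxp1 feature 24695 (0.34) and Meis2 features 12811 (0.17) and 39456 (0.11). It changed side with the first Cy5 array turned for Isl1 (0.060), Foxp1 feature 3602 (0.28), Rxrg (0.053), Bcl11b features 10335 (0.22) and 25400 (0.41), Rarb feature 21062 (0.15), Foxp2 feature 22198 (0.22) and Meis2 feature 42502 (0.17). With the trend removed, that turn gave Rxrg 0.018, Meis2 features 12811 and 42502 0.010 and 0.15, Rarb 0.085 and Bcl11b feature 25400 0.34. From the cocaine-in-Cy5 arrays alone, Bcl11b feature 10335 was at -0.077 and Foxp1 feature 24695 at 0.31, and from the cocaine-in-Cy3 arrays alone, Foxp2 was at -0.040 and Bcl11b feature 25400 at 0.30. Bcl11b feature 10335 was at -0.0041 with the trend over all spots and -0.015 with the background level subtracted, Bcl11b feature 25400 at 0.022 with array weights, and Foxp2 at -0.041 with equal signal on all arrays and -0.0083 with a posterior mean brightness. Leaving out 1 array moved Rarb feature 21062 between -0.14 and 0.022, Bcl11b feature 25400 between -0.26 and 0.070, Bcl11b feature 10335 between -0.092 and 0.15, Meis2 feature 42502 between -0.20 and 0.068, and Foxp2 between -0.031 and 0.16. Meis2 feature 39456 stayed on the denominator side in every setting with the trend removed (-0.51 to -0.12). The cause of these moves was not tested. The turned array, the subtracted background, equal signal and the posterior mean were added after seeing the data.

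With a brightness limit of 8 and with equal signal on all arrays, 7 and 6 of the 9 spots counted as above background. The limit of 8 left out Foxp2 feature 22198 (7.95) and Bcl11b feature 10335 (7.75), so Foxp2 then had no spot above background. No paired analysis was possible because the labels give the arrays no replicate numbers that tie samples across orientations, and each array already sets 1 cocaine against 1 saline sample.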
